A study of Mus musculus with 4 samples.

Results

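Galanin (Gal), neuropeptide Y (Npy), vasoactive intestinal peptide (Vip) and somatostatin (Sst) were followed in mouse dorsal root ganglia (DRG), which hold the cell bodies of sensory neurons, without injury and 72 hours after a forceps injury of the sciatic nerve. Each was represented by 1 transcript, chosen by its identifier: ENSMUST00000031843.7 for Npy, ENSMUST00000004480.5 for Sst, ENSMUST00000025842.8 for Gal and ENSMUST00000019906.6 for Vip, 4 of the 116912 transcripts listed. Bulk RNA was total RNA of the whole ganglion of adult wild-type CD-1 mice, read with a nanopore direct RNA kit. RiboTag RNA came from adult RPL22HA+/+;Advillin-Cre+ mice, a cross of the line B6N.129-Rpl22tm1.1Psam/J with the Cre line B6.129P2-Aviltm2(cre)Fawa/J, and was read with a nanopore cDNA-PCR kit. In these mice, with and without injury, Cre made from the Advillin gene, which is active in sensory neurons, switches on an HA-tagged ribosomal protein, and RNA bound to tagged ribosomes was precipitated with an anti-HA antibody. Kit, strain, genotype and precipitation changed together between bulk and RiboTag RNA, so their effects cannot be told apart. Each of the 4 groups (uninjured and injured, bulk and RiboTag) held 1 sample, the labels do not say whether animals were pooled, and no difference below could be tested against the spread between animals.

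Neuropeptides are short chains cut from larger precursor proteins, stored in dense-core vesicles and released to act on G protein-coupled receptors. Galanin, neuropeptide Y and vasoactive intestinal peptide are known for being scarce in intact sensory ganglia of rodents and for rising in sensory neurons after their peripheral axons are cut or crushed. Somatostatin marks a group of small sensory neurons linked to itch. All 4 are ligands, and the transcripts counted here encode their precursors.

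The start regions of Npy, the transcript that was higher after injury, and of Vip and Sst, which hold letters of a well-known neuropeptide gene element, are shown as context for these genes. The sequences are from RefSeq on GRCm38.p6, a build other than that of the counts, and are written 5′ to 3′ on the gene's strand. The Npy stretch holds the 250 bases before its start (chr6:49822460-49822709, plus strand), with capitals on ATAAAA, which begins 20 bases before the start. The others are 30 bases around the letters of the cyclic AMP response element (CRE), the site bound by CREB and related factors, in capitals: the half-site TGACG in Vip (chr10:5639127-5639156, plus strand) and the full TGACGTCA in Sst (chr16:23890874-23890903, minus strand).
Npy: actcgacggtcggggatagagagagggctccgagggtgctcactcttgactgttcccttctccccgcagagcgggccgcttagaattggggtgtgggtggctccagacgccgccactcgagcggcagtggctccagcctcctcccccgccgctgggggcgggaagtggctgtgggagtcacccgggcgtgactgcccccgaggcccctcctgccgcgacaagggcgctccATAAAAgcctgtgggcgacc
Vip: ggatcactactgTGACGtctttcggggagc
Sst: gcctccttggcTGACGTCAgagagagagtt

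In the 250 bases before the start, searched on both strands, the half-site TGACG was found in 2 of the 4 genes, Vip and Sst, and in 17.8% of 32851 RefSeq start regions. The full site TGACGTCA, which contains the half-site, was found in Sst alone of the 4 and in 1.55% of all start regions. The AP-1 letters TGAGTCA, read by Jun and its partners, were in 0 of the 4 and in 4.46% of all, and ATAAAA was in 2 of the 4, Npy among them, and in 17.0% of all. These are matches of letters in 1 window per gene, and no binding was measured.

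Levels are given as estimated reads in each of the 3 columns deposited for a library, and as the mean of the columns in RPM, the reads scaled to a common library total with no division by transcript length. The columns belong to 1 sample and were not treated as replicates. A bulk column held 592935 reads on average without injury and 529332 after it, and a RiboTag column 207597 and 79334. Where every column was at 0, the level is given as a limit of 3 reads at the mean depth, which is 5.06, 5.67, 14.5 and 37.8 RPM in the same order. All intervals are 95% intervals that cover counting error only. The exact Poisson 95% interval of a count of 0 reaches higher than this limit, to 3.69 reads. In RPM that is 6.22, 6.97, 17.8 and 46.5 in the same order. In bulk RNA, fewer cells of a type and less RNA per cell cannot be told apart.

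Npy was the only transcript of the 4 counted as higher after injury in the whole ganglion. Neuropeptide Y acts on Npy1r, Npy2r and related receptors. Its transcript had 0, 3 and 1 reads in the uninjured bulk columns and 17, 24 and 16 in the injured ones. Every injured column was above every uninjured column, with 16 reads in the lowest injured and 3 in the highest uninjured. The level was 2.25 RPM without injury (exact Poisson 95% interval 0.0427 to 9.40) and 35.9 after it (21.6 to 56.1). On the log2 scale, after adding 0.5 read to each mean count, the injured to uninjured ratio was 3.57 (exact conditional binomial 95% interval 1.76 to 9.79), an 11.9-fold difference with an interval of 3.38-fold to 884-fold. The added 0.5 read makes this ratio smaller than that of the levels. The upper limit is wide because the uninjured level rests on between 1 and 2 reads.

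**Figure D1:**
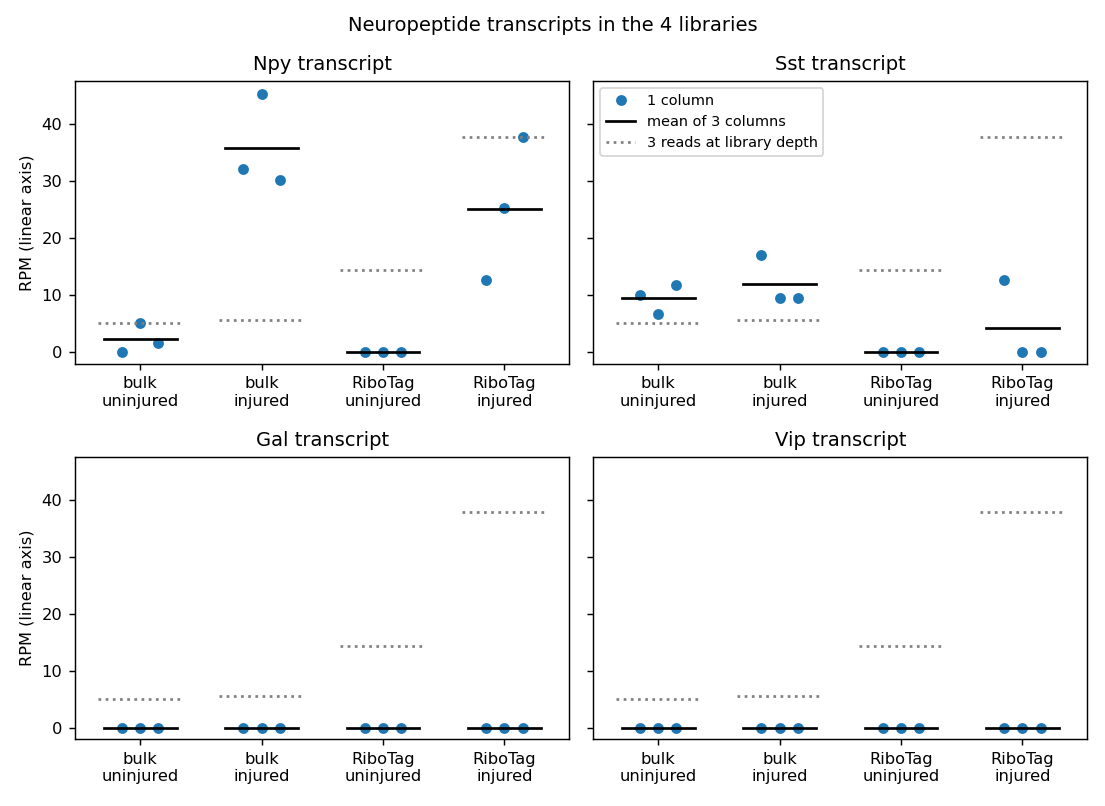
Estimated reads in RPM (linear axis) of the Npy, Sst, Gal and Vip transcripts in the 4 libraries. Points are the 3 deposited columns of 1 sample, black lines their mean, and dotted lines 3 reads at the mean depth of the library. Npy stood at 35.9 in injured bulk RNA against 2.25 without injury, while Gal and Vip were at 0 in all 12 columns.

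A transcript was counted as higher or lower where it had 20 or more reads summed over the compared libraries, a ratio of 2-fold or more and an interval that excluded no change. In bulk RNA, 1 of the 4 transcripts, Npy with 20.3 reads, met the read minimum, and it was counted as higher. The injured library gave 19 of these reads, so Npy met the minimum only through the group in which it was higher. Its being counted and its rank are therefore descriptions and add no separate support for a rise. Over all 7739 transcripts that met the minimum, 5.21% were counted as higher and the median log2 ratio was 0.00. Injured columns that all lay above the uninjured ones, as for Npy, were found in 10.3% of the 7739. The Npy ratio ranked 103 from the highest, above 98.7% of transcripts tested. Of the 102 above it, 93 had 0 reads in every uninjured column, so that their ratios are set by the 0.5 read added. Npy was just over the read minimum: without column 2 it had 17 reads and was not counted, at a log2 ratio of 4.25, and under a minimum of 50 reads it would not enter.

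**Figure D2:**
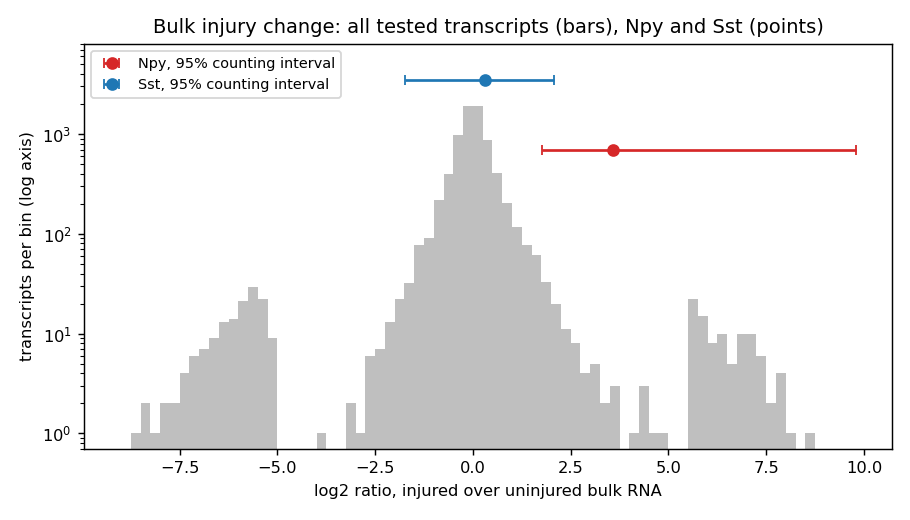
Log2 ratio of injured over uninjured bulk RNA for the 7739 transcripts tested (bars, number per bin of 0.25 on a log axis), with Npy and Sst as points at arbitrary heights and their 95% counting intervals as lines. Npy lies at 3.57, to the right of the main mass of transcripts, while Sst, which had too few reads to enter the bars, lies at 0.31 with an interval across 0.

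In RiboTag RNA the Npy transcript had reads in each injured column and none in the uninjured ones, at counts near the limit of detection. It had 0 reads in each of the 3 uninjured columns and 1, 2 and 3 in the injured ones. The uninjured level was therefore up to 14.5 RPM, and the injured level was 25.2 (3.05 to 91.1). Both means are at or under 3 reads, so no fold is given, and the lower 95% limit of the log2 ratio was -1.02, which includes no change. With the columns summed in place of averaged, the transcript had 6 of 238003 reads after injury and 0 of 622790 without it. The lower limit of the log2 ratio was then 1.62, above no change, still under the read minimum. Whether the columns hold separate reads is not given in the sources used here.

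After injury the Npy level in RiboTag RNA could not be told from that in bulk RNA. The levels were 25.2 and 35.9 RPM. With 0.5 read added to each mean count, the log2 ratio was -0.23 (-3.66 to 1.54), which is nearer no change than the ratio of the levels. At the share of reads it had in injured bulk RNA, the RiboTag library would hold 2.85 Npy reads, and it held 2. Npy was 1 of the 4 transcripts to meet the read minimum in this comparison and was not counted as changed, while 43.6% of 5045 transcripts were. Bulk RNA gave 19 of its 21 reads, and without any RiboTag read these would have missed the minimum of 20. At this depth Npy could hardly have been counted as lower, so the 43.6% does not set it apart from other transcripts. The interval allows a RiboTag level from 0.0793 to 2.91 times the bulk level. The sign of this ratio turned to 0.14 with median-of-ratios scaling, to 0.53 with totals that leave out the 2 most abundant RiboTag transcripts and to 0.96 with a pseudocount of 5.

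Sst was detected in both bulk libraries at levels that did not differ beyond counting error. Somatostatin inhibits secretion and neuronal firing through the receptors Sstr1 to Sstr5. The transcript had 6, 4 and 7 reads in the uninjured bulk columns and 9, 5 and 5 in the injured ones, and the columns overlapped. Its level was 9.56 RPM (3.71 to 22.0) without injury and 12.0 (4.16 to 24.7) after it. The log2 ratio was 0.31 (-1.74 to 2.07), so the counts allow an injured level from 0.299 to 4.19 times the uninjured one. With 12 reads in all it was under the read minimum.

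In RiboTag RNA Sst had 0 reads in the 3 uninjured columns and 1, 0 and 0 reads in the injured ones. These are up to 14.5 RPM without injury, and a mean of 0.333 reads after it. At the bulk share of reads, 1.98 reads would be due without injury and 0.949 after it. With averaged columns, a level lower in RiboTag than in bulk RNA was therefore not detectable at this depth. Summed over the columns, Sst had 17 reads in uninjured bulk RNA and 0 in uninjured RiboTag RNA. That summed comparison was not made, and it would hold only if the columns are separate reads. Of 1475 transcripts with 5 or more and under 7 mean reads in uninjured bulk RNA, the range that holds Sst, 27.8% were also at 0 in every uninjured RiboTag column.

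The Gal and Vip transcripts had 0 reads in all 12 columns. Galanin acts on Galr1, Galr2 and Galr3, and vasoactive intestinal peptide on Vipr1 and Vipr2. The limits of a count of 0 given above apply to each: 5.06 RPM in bulk RNA without injury and 5.67 after it, and 14.5 and 37.8 in RiboTag RNA. No change with injury can be given for either. The injured RiboTag limit of 37.8 is above the 35.9 RPM that Npy reached in injured bulk RNA, so a transcript at that level could be missed there. Of the 116912 transcripts listed, 73.3% were at 0 in all 12 columns.

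These zeros hold for the listed transcripts and not for the genes. Reads of another transcript of the same gene can be assigned to that transcript's own entry, and how reads were divided between entries was not examined. Apart from the 4, whose gene names came with the choice of identifiers, the sources used here pair no transcript identifier with a gene. In RefSeq, Gal has 2 curated transcripts, Vip 2 curated and 5 predicted, Sst 1 curated and 1 predicted, and Npy 1. Of the 8 entries listed directly before or after the 4 transcripts, 5 were at 0 in every column. Being adjacent does not show that 2 entries share a gene. The entry after Sst was not counted as changed with injury, at log2 ratios of 0.27 (-0.43 to 1.02) in bulk and -0.86 (-1.67 to -0.15) in RiboTag RNA. The entry after Gal had 0, 0 and 14 reads in the uninjured bulk columns and 0, 0 and 20 in the injured ones. The entry before Gal, ENSMUST00000237521.2, was singled out after its values were seen. It had 13, 40.8 and 27 reads in the uninjured bulk columns and 191, 177 and 180 in the injured ones. In RiboTag RNA it had 1, 2 and 0 reads without injury and 12, 11 and 12 after it. In both assays every injured column was above every uninjured one, as in 10.3% of the 7739 transcripts tested in bulk RNA. The share in RiboTag RNA is not given here. The level in bulk RNA was 45.4 RPM without injury and 345 after it, a log2 ratio of 2.90 (2.34 to 3.56), and this entry was counted as higher. In RiboTag RNA the levels were 4.82 and 147 RPM, a log2 ratio of 4.41 (2.22 to 10.39) from 12.7 reads in all, under the read minimum. Its gene is not given in the sources used here.

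**Figure D3:**
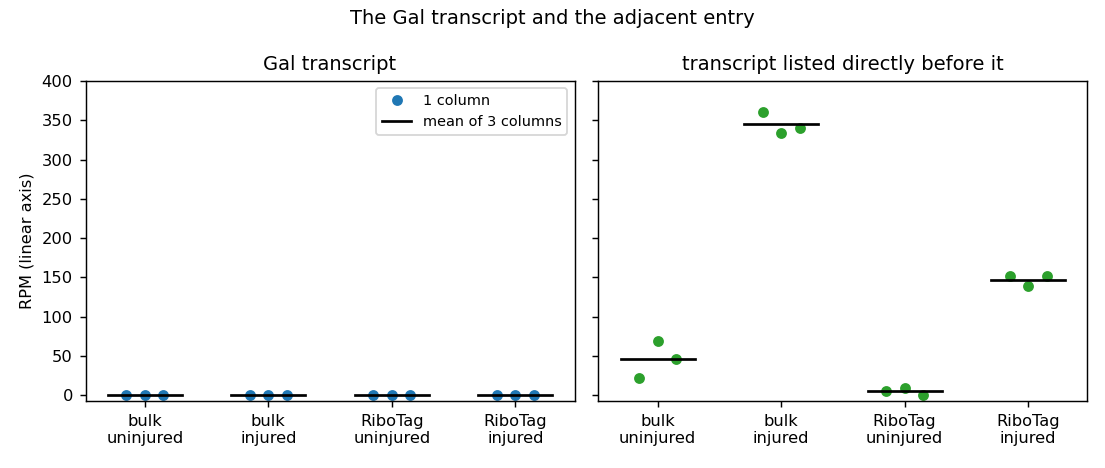
Estimated reads in RPM (linear axis) of the Gal transcript and of the entry listed directly before it, whose gene is not given. Points are the 3 deposited columns of 1 sample and lines their mean. The Gal transcript is at 0 throughout, and the adjacent entry is at 45.4 and 345 in bulk and at 4.82 and 147 in RiboTag RNA without and with injury.

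Whether injury changed the ratio of RiboTag to bulk RNA could not be read for any of the 4 transcripts. With averaged columns, 0 of them had 5 or more RiboTag reads. For the same reason no transcript of like pattern is named: the rule asked for 20 reads in both injury comparisons, and 0 of the 4 had them.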

How the data were processed

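Per the labels' protocols, bulk RNA was extracted with a column kit and RiboTag RNA from the anti-HA precipitate with the same kit. The tools minimap2 and Salmon and the builds GRCm39 and mm39 are named in the submitters' processing notes. Tool versions, settings and the origin of the 3 columns of each library are not given there. The authors deposited estimated counts per transcript and TPM. Deposited TPM equalled the estimated count times 1 constant per column, within 0.0499% where a transcript had 1 read or more. Transcript length therefore did not enter, and levels are not compared between genes as molecules per length. The 3 columns were averaged and counted as 1 sample. The means were divided by library totals and 0.5 read was added before log2 ratios. Intervals used counts rounded to whole numbers. Without molecular identifiers, PCR copies in the RiboTag libraries are counted as separate reads.

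Each group had 1 sample, so conditions were compared without a test. All 4 transcripts are named with their values. The transcripts, lists and rules were chosen with earlier results of these data known. Lists of other peptides, receptors, peptide processing genes and cell type markers were drawn up by symbol, but 0 transcript identifiers are paired with a symbol in the tables given, so these lists and the tissue label were not checked. Scaling, pseudocount, read minimum and columns were varied. Python 3.11.15 with scipy 1.17.1 and edgeR 4.0.16 (TMM factors only) were used.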

Additional observations from a re-analysis of the deposited data

Results flagged for a closer look

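ENSMUST00000237521.2, the entry listed directly before the Gal transcript, carried a signal outside the 4 transcripts that was above the uninjured level in both assays. Its log2 ratio of injured to uninjured RNA was 2.90 in bulk and 4.41 in RiboTag RNA, while the Gal transcript had 0 reads in every column. Its gene is not given in the sources used here, and whether reads of Gal were assigned to it was not tested.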

How the results depend on the processing

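The Npy bulk change kept its direction under all 10 alternatives, with log2 ratios from 2.09 (pseudocount of 5) to 4.25. These reuse the same 1 sample per group, and every injured column lay above every uninjured one. The kept direction therefore adds no separate support for a rise. Leaving out 1 column at a time gave 3.20 to 4.25, and without column 2 Npy had 17 reads and was not counted. With summed columns the log2 ratio was 3.84 (2.56 to 5.92). The Sst bulk change ranged from 0.04 to 0.61 and was never counted. The Npy ratio of RiboTag to bulk RNA after injury ranged from -0.65 to 0.96 and was never counted. With averaged columns Npy could hardly have been counted as lower at this depth. The lower limit of the Npy RiboTag change was 1.62 with summed columns and below 0 otherwise. Transcripts counted in bulk injury (755) became 2071 with summed columns, 316 at a minimum of 50 reads and 1582 with no minimum. Those counted between RiboTag and bulk RNA after injury (2202; 388 higher, 1814 lower) became 5130 (1090, 4040) with summed columns and 1157 (404, 753) with a pseudocount of 5. Other splits were 446 and 1551 with TMM, 510 and 1308 with median-of-ratios scaling, 679 and 892 with totals that leave out the 2 most abundant RiboTag transcripts, and 1361 and 1814 with no minimum. Summing triples the reads, which narrows the intervals and lets more transcripts enter; for the remaining shifts the cause was not tested. The entries adjacent to the 4 transcripts were looked at after the data were seen. No paired analysis was possible because each group has 1 sample. Depth limits every RiboTag value, since 3 reads at the mean depth of a column are 37.8 RPM after injury.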
